A study of Homo sapiens with 12 samples.

Results

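Prolactin receptor and STAT5 signaling was followed through 7 genes: the receptors PRLR and GHR, the kinase JAK2, the transcription factors STAT5A and STAT5B, and the feedback inhibitors CISH and SOCS2. They were taken by name from the deposited gene table, where all 7 were found among 23368 distinct gene symbols. Poly(A) RNA was sequenced from MDA-MB-231 cells, an ER− breast cancer line of mesenchymal character, and T47D cells, an ER+ luminal line. Both lines were encapsulated as single cells in a degradable poly(ethylene glycol) matrix and cultured for 3 days. The matrix carried either GFOGER, a peptide mimic of collagen, or IKVAV, a peptide mimic of laminin. Counts were analysed for 3 GFOGER and 2 IKVAV libraries of the MDA-MB-231 line and 3 GFOGER and 3 IKVAV libraries of the T47D line, each made from 3 pooled gels that had been digested with collagenase. All groups shared the same matrix chemistry, medium and digestion, and neither prolactin nor growth hormone was named in the labels as added to the medium, which held serum, antibiotics and an antifungal. Each cell line is 1 line standing for a tumor subtype, so a difference between them is a difference between these lines.

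Prolactin and growth hormone bind PRLR and GHR, cytokine receptors with no kinase of their own that signal through bound JAK2. JAK2 phosphorylates the receptor and then STAT5A and STAT5B, which move to the nucleus and turn on genes. Among those genes are CISH and SOCS2, whose proteins bind the activated receptors and dampen them. In the mammary gland this route drives alveolar growth and milk protein synthesis, with the transcription factor ELF5 acting beside STAT5A.

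Levels are given as counts-per-million reads (cpm), after scaling of library sizes by TMM (trimmed mean of M-values) over all 11 libraries. A gene was called at a Benjamini-Hochberg adjusted p below 0.05 and a difference over 2-fold in edgeR's quasi-likelihood test. Nothing in the labels says that replicates came from separate cultures, so p-values measure the spread between these samples. In bulk RNA, fewer cells that express a gene and less of its RNA per cell cannot be told apart.

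The libraries held 14338238 to 18452145 counted reads, with a median of 16703842, and between 16620 and 17034 genes had a read. The lines bore their labels: all 7 luminal markers (ESR1, PGR, GATA3, FOXA1, KRT8, KRT18 and CDH1) were called higher in T47D cells, and all 5 mesenchymal markers (VIM, ZEB1, AXL, CAV1 and CD44) were called higher in MDA-MB-231 cells. Markers of other cell types differed between the lines too. The summed level of 4 leukocyte markers (PTPRC, CD3E, CD68 and CD14) was 257 to 472 cpm in MDA-MB-231 libraries and 2.39 to 3.74 cpm in T47D libraries, most of it CD68, while the defining marker PTPRC had at most 10 reads in a library and CD3E at most 1. The sum of 3 endothelial markers (PECAM1, CDH5 and VWF) was 8.34 to 14.8 cpm against 0 to 0.183 cpm, with PECAM1 at 0 reads in T47D cells, and CDH5 had at most 1 read in a library. The sum of 4 fibroblast markers (COL1A1, COL1A2, PDGFRA and PDGFRB) was 17.2 to 35.4 cpm against 52.7 to 62.4 cpm. These markers did not run one way. COL1A1 was called lower in MDA-MB-231 cells (log2 difference -2.09), whereas COL1A2 (4.20) and PDGFRB (8.08) were called higher there. PDGFRA was not tested. The part of all these markers in the differences between the lines was not tested.

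The sequences that bear on the readout are shown first. CISH is a classical STAT5 target, and the core letters that STAT5 dimers bind are TTCNNNGAA, a pattern that reads the same on both strands. The 250 bases before the CISH start site, at chr3:50611775-50612024 on the minus strand of GRCh38.p14 in RefSeq's promoter table, held 4 matches, which are in capitals and do not overlap one another.

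CISH: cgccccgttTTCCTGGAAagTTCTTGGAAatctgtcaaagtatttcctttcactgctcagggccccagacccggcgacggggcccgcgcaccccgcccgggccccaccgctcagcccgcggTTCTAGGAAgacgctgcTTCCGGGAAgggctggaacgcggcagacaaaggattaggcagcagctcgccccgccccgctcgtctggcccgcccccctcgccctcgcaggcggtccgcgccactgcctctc

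The matches began 241, 230, 129 and 112 bases before the start site. Of 35116 windows of this length in the table, 6.57% held at least 1 match and 0.0142%, or 5 windows of 4 genes, held at least 4. The other members with a window were PRLR, GHR, JAK2, STAT5A and STAT5B, with SOCS2 not among them. Across the 18 windows of these 6 genes, a match was found only in the CISH window and in 1 of 7 GHR windows. A match is a description of the letters, not a bound site.

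STAT5A and STAT5B are neighbors and closely related copies with some identical stretches, which bears on how far their reads can be told apart. On hg19 STAT5B lies at chr17:40351195-40428424 on the minus strand and STAT5A at chr17:40439565-40463960 on the plus strand, 11.14 kb apart. Their coding sequences, in the canonical GENCODE transcripts on GRCh37, share an unbroken run of 429 identical bases from coding position 564 to 992 of both. The 60 bases across each end of that run are shown, where capitals mark bases that differ between the genes.

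STAT5A, coding bases 544 to 603: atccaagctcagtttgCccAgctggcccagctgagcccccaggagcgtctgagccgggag
STAT5B, coding bases 544 to 603: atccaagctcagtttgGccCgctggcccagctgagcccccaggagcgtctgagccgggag
STAT5A, coding bases 953 to 1012: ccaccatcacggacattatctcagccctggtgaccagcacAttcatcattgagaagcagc
STAT5B, coding bases 953 to 1012: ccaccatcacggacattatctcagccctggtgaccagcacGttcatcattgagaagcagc

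Of all windows of 50 bases in the transcript, 15.1% of those of STAT5A (562 of 3721) were also found in STAT5B, and 10.1% of those of STAT5B (507 of 5030) in STAT5A. Reads from such stretches cannot be assigned, so the levels of both genes carry that uncertainty. Of the other members, PRLR, JAK2 and SOCS2 had no window found in another gene, GHR had 0.289% and CISH had 2.94%.

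The ligands were at or near the limit of detection. PRL, which encodes prolactin, had 0 reads in the 5 MDA-MB-231 libraries and 12 reads over the 6 T47D libraries, 1 to 3 in each. GH1 and CSH2 had 1 read each in all, and GH2 and CSH1 had 0. None of these 5 genes could be tested, and a count of 0 allows a level of up to 0.163 to 0.209 cpm per library (3 reads, counting error only).

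PRLR, which binds prolactin, took more reads in T47D cells than nearly all other genes and far fewer in MDA-MB-231 cells. It lies on chromosome 5 of hg19, at chr5:35048861-35230823 on the minus strand. In T47D cells with GFOGER its level was 4497, 4566 and 5036 cpm, and with IKVAV it was 5064, 5339 and 5699.6 cpm. MDA-MB-231 libraries had 20.7, 21.9 and 20.8 cpm for GFOGER and 22.7 and 17.3 cpm for IKVAV. The ranges of the lines were far apart, and within T47D cells every IKVAV library lay above every GFOGER library. PRLR took 0.463% to 0.574% of all counted reads in T47D libraries. By number of reads it ranked 2 of 17930 genes with a read in T47D cells with GFOGER and 1 of 18101 with IKVAV. Its length in the table is 12470 bases, and by reads per kilobase, the measure that compares genes, it ranked 73 and 56. By the same measure it ranked 11250 of 18195 genes in MDA-MB-231 cells with GFOGER and 11559 of 17609 with IKVAV. By number of reads it ranked 7878 and 8033 there.

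GHR, the growth hormone receptor, was also a T47D transcript. It lies on the same chromosome as PRLR, at chr5:42423877-42721980 on the plus strand, 7.193 Mb farther along. T47D cells had 154, 142 and 154 cpm with GFOGER and 139.7, 155 and 157 cpm with IKVAV. MDA-MB-231 libraries had 7, 1 and 3 reads with GFOGER and 7 and 7 reads with IKVAV, or 0.0617 to 0.454 cpm, so its level there is set by a handful of reads. Per kilobase, PRLR stood 15.4-fold above GHR in T47D cells with GFOGER and 17.6-fold with IKVAV.

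JAK2, the kinase that both receptors use, was low in both lines and differed little. It lies on chromosome 9 at chr9:4985245-5128183. MDA-MB-231 cells had 9.43, 8.95 and 7.52 cpm with GFOGER and 5.96 and 8.26 cpm with IKVAV. T47D cells had 4.79, 5.06 and 5.07 cpm with GFOGER and 5.42, 4.39 and 6.47 cpm with IKVAV. The lowest MDA-MB-231 library and the highest T47D library overlapped.

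STAT5A was higher in MDA-MB-231 cells, whereas STAT5B was at much the same level in both lines. STAT5A had 22.1, 20.8 and 27.1 cpm in the MDA-MB-231 GFOGER libraries and 25.2 and 24.2 cpm in the IKVAV libraries. In T47D cells it had 5.56, 4.46 and 5.07 cpm with GFOGER and 4.88, 5.31 and 7.01 cpm with IKVAV. The lines did not overlap for STAT5A. STAT5B had 43.6, 45.2 and 48.5 cpm in the MDA-MB-231 GFOGER libraries and 53.1 and 50.9 cpm in the IKVAV libraries. In T47D cells it had 55.1, 51.55 and 51.4 cpm with GFOGER and 55.0, 47.4 and 53.9 cpm with IKVAV. The lines overlapped for STAT5B.

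The feedback inhibitors split between the lines. CISH, at chr3:50643885-50649262 on the minus strand, had 16.3, 18.8 and 14.7 cpm in T47D cells with GFOGER and 20.9, 16.5 and 16.0 cpm with IKVAV. In MDA-MB-231 cells it had 5, 11 and 19 reads with GFOGER and 19 and 24 reads with IKVAV, which is 0.286 to 1.45 cpm. SOCS2, at chr12:93963598-93969978 on the plus strand, had the opposite pattern. In MDA-MB-231 cells it had 91, 132 and 95 reads with GFOGER (5.20, 8.15 and 5.41 cpm) and 28 and 41 reads with IKVAV (1.81 and 2.47 cpm). In T47D libraries it had 0, 1 and 0 reads with GFOGER and 0, 0 and 2 reads with IKVAV. SOCS2 was thus at the limit of detection in T47D cells, and within MDA-MB-231 cells the GFOGER libraries all lay above the IKVAV libraries. In the table's positions SOCS2 overlaps LOC144481 by 1577 bases, but that gene had at most 4 reads in a library, and no other member overlaps a gene.

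**Figure D1:**
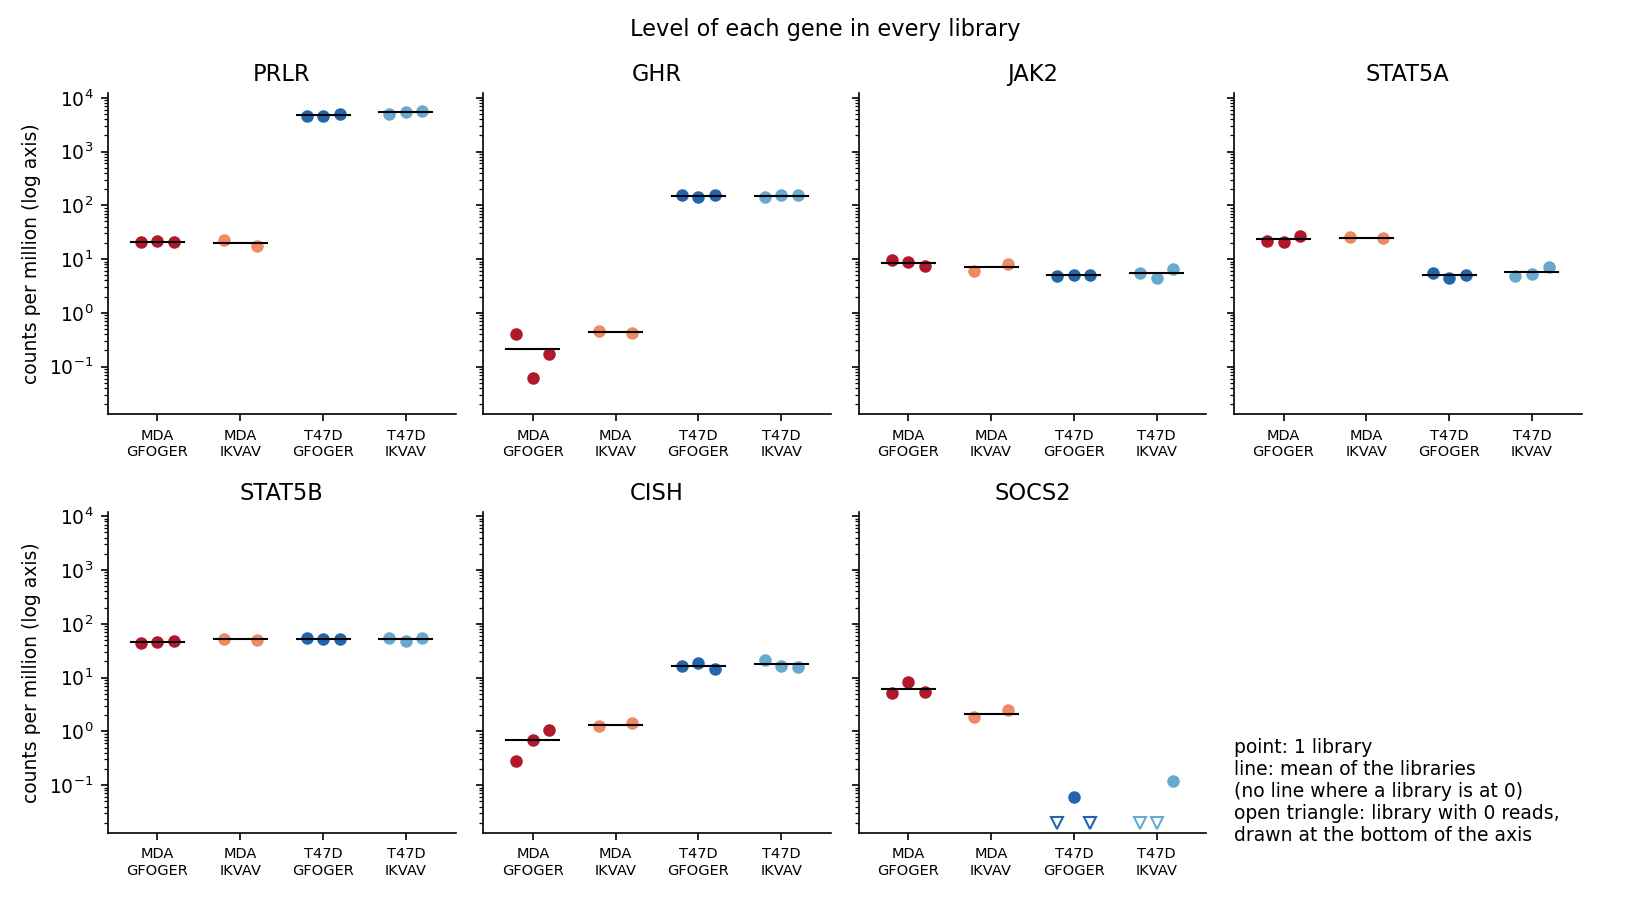
Level of the 7 genes in each of the 11 libraries, in cpm on a log axis, by cell line (MDA is MDA-MB-231) and matrix peptide, where each point is 1 library, lines are means and open triangles are libraries with 0 reads. PRLR, GHR and CISH sit higher in all 6 T47D libraries, STAT5A and SOCS2 in all 5 MDA-MB-231 libraries, and STAT5B overlaps between the lines at 43.6 to 55.1 cpm.

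Per kilobase of gene, the order of the 7 genes differed between the lines. In T47D cells with either peptide the order was PRLR, GHR, STAT5B, CISH, STAT5A, JAK2 and SOCS2. The mean level of PRLR was 377 ± 23.5 cpm per kilobase with GFOGER and 430.4 ± 25.6 with IKVAV (SD, n = 3 each), and that of the next gene, GHR, was 24.4 ± 1.12 and 24.5 ± 1.54. STAT5A and JAK2 overlapped with IKVAV and did not with GFOGER, and all other neighbors in the order were apart. In MDA-MB-231 cells STAT5B led with 8.99 ± 0.492 cpm per kilobase with GFOGER (SD, n = 3) and 10.2 ± 0.296 with IKVAV (SD, n = 2), followed by STAT5A. With GFOGER the third was SOCS2, then PRLR, JAK2, CISH and GHR. With IKVAV the order after STAT5A was PRLR, JAK2, SOCS2, CISH and GHR. PRLR and JAK2 overlapped with both peptides and no other neighbors did.

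**Figure D2:**
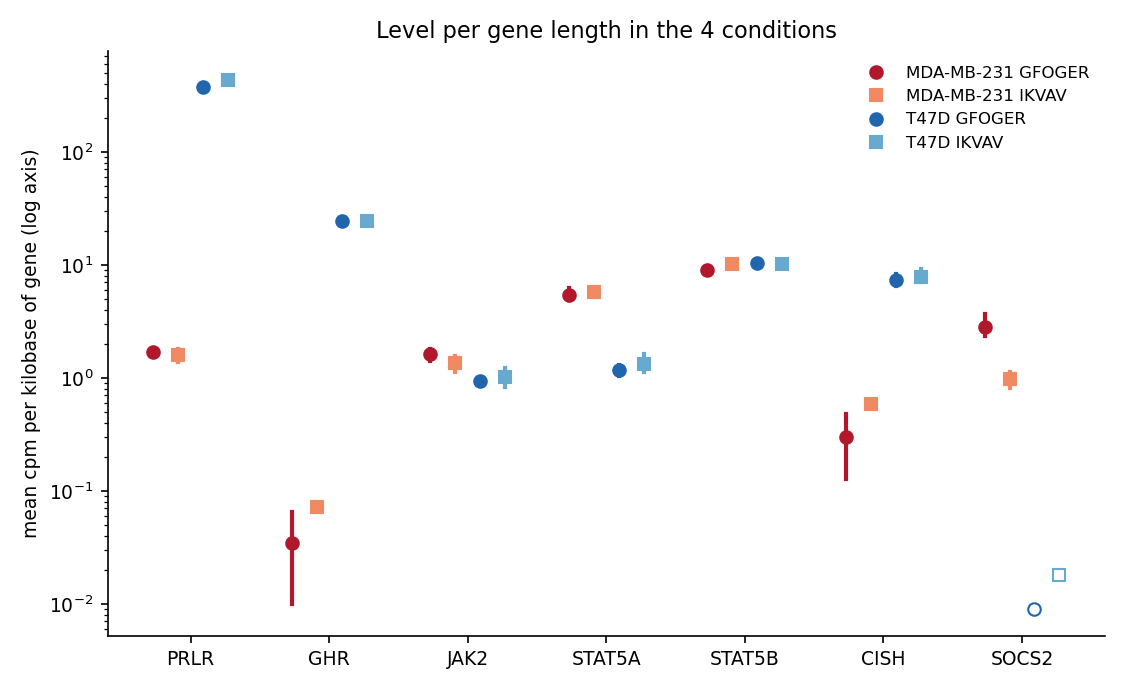
Mean level of each gene per kilobase of gene length in the 4 conditions, in cpm per kilobase on a log axis, where vertical lines span the lowest to the highest library (shown only where no library is at 0) and open symbols are means over libraries of which some have 0 reads. PRLR reaches 377 and 430.4 in T47D cells and 1.69 and 1.60 in MDA-MB-231 cells, and STAT5B lies between 8.99 and 10.3 in all 4 conditions.

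The comparison of the cell lines was made across both peptides, with the peptides weighted equally. Of all 15320 genes tested, 46.3% were called, and 84.5% passed on adjusted p alone, whatever the fold. Among the 7 members 5 were called, with STAT5A and SOCS2 higher in MDA-MB-231 cells and PRLR, GHR and CISH lower. JAK2 was added on adjusted p alone, and STAT5B did not pass. Against a background of this size, the count of members called is no result about them, and their values carry the description.

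PRLR was lower in MDA-MB-231 cells by a log2 difference of -7.93 (SE 0.0938, adjusted p = 3.04e-23), or 245-fold, in edgeR's quasi-likelihood test. The log2 difference of GHR was -8.90 (SE 0.146), and that of CISH was -4.16 (SE 0.190). Of the 15320 genes, 203 had a difference below that of PRLR and 91 below that of GHR. On the pooled reads, with no spread between samples in it, GHR was 530.4-fold higher in T47D cells (25 against 14907 reads, exact 95% interval 359 to 820), and CISH was 19.4-fold higher (78 against 1697 reads, 15.4 to 24.6).

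STAT5A was higher in MDA-MB-231 cells by a log2 difference of 2.16 (SE 0.116, adjusted p = 5.45e-13 in edgeR's test), or 4.46-fold. For SOCS2 the pooled reads gave 145-fold (387 against 3 reads, exact 95% interval 49.2 to 706). The fitted log2 difference of SOCS2 was 6.65 (SE 0.450, adjusted p = 2.39e-11) and rests on the 3 T47D reads. JAK2 was higher in MDA-MB-231 cells by 0.59 on the log2 scale (SE 0.139, adjusted p = 0.000587), which is below the 2-fold limit. For STAT5B the log2 difference was -0.10, with a 95% interval of -0.25 to 0.04 and an adjusted p of 0.173, so a difference of more than 1.19-fold lay outside the interval.

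The make-up of the STAT5 pool was read within each library, as the share of STAT5A in the summed STAT5A and STAT5B reads per gene length, a ratio that does not depend on scaling between libraries. In MDA-MB-231 cells the share was 37.5%, 35.3% and 39.8% with GFOGER and 36.0% and 36.0% with IKVAV. In T47D cells it was 10.7%, 9.31% and 10.5% with GFOGER and 9.52%, 11.7% and 13.3% with IKVAV. Every MDA-MB-231 library lay above every T47D library. The mean was 36.9% ± 1.81 (SD, n = 5) against 10.8% ± 1.5 (SD, n = 6), a difference of 26.1 percentage points with a two-sided exact permutation p of 0.00216, the smallest that 462 permutations can give (0.00648 adjusted over 3 comparisons). Between the peptides the share differed by 1.53 points in MDA-MB-231 cells (exact permutation p = 0.6, 0.6 adjusted) and by -1.38 points in T47D cells (exact permutation p = 0.3, 0.45 adjusted). With so few libraries these tests cannot go below 0.1.

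**Figure D3:**
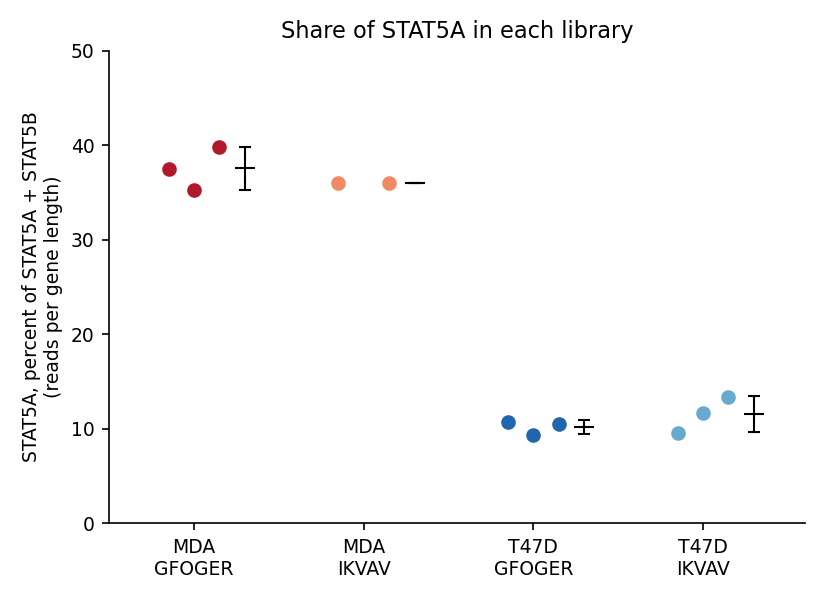
Share of STAT5A in the summed reads of STAT5A and STAT5B per gene length, in percent, for each library (points) with the mean and SD of each condition (bars), by cell line (MDA is MDA-MB-231) and peptide. The MDA-MB-231 libraries lie between 35.3% and 39.8% and the T47D libraries between 9.31% and 13.3%.

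Of the 6 members tested in each line, only SOCS2 in MDA-MB-231 cells passed the threshold between the matrix peptides. GHR could not be tested in MDA-MB-231 cells, nor SOCS2 in T47D cells. SOCS2 was 2.88-fold higher with GFOGER than with IKVAV, a log2 difference of 1.53 (SE 0.282, 95% interval 0.93 to 2.12, adjusted p = 0.0003998 in edgeR's quasi-likelihood test). It was higher in all 3 GFOGER libraries than in both IKVAV libraries, but 3 and 2 libraries can be divided in only 10 ways. Here and elsewhere, the share of all genes whose libraries separate by peptide was not counted. Separation of the libraries is therefore only a description. In this comparison 9.57% of the 14092 genes tested were called, 439 of them higher with GFOGER, and 42.9% passed on adjusted p alone, so 1 of 6 members tested is not set apart from the background by count. Of all genes tested, 187 had a larger increase than SOCS2. With any 1 library left out the difference stayed between 1.29 and 1.77, but the call was lost when the 2-fold limit was put inside the test (adjusted p = 0.251).

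Markers moved with the peptide in the same MDA-MB-231 libraries. Of 18 markers tested, AXL (log2 difference 1.42) was called higher with GFOGER, and COL1A2 (-1.12) and PDGFRB (-1.29) were called lower. On adjusted p alone 5 were higher and 6 lower (61.1%, against 42.9% of all genes). The summed level of the mesenchymal markers was 6134 to 6320 cpm with GFOGER and 4066 to 4160 cpm with IKVAV. On adjusted p alone 4 of them were higher and 1, ZEB1, was lower (-0.40, adjusted p = 0.00246 in edgeR's test). The sum of the luminal markers overlapped, at 348 to 428 and 399 to 414 cpm. Of these, CDH1 was lower with GFOGER on adjusted p alone (-0.97, adjusted p = 0.00594 in edgeR's test) and 0 were higher. The leukocyte sum was 351.5 to 472 cpm against 257 to 266 cpm, through CD68 (0.61). The endothelial sum was 8.34 to 9.91 cpm against 14.4 to 14.8 cpm, through PECAM1 (-0.70), and the fibroblast sum was 17.2 to 21.8 cpm against 31.6 to 35.4 cpm. CD3E had 0 reads in these libraries. The part of these markers in the differences between the peptides was not tested.

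CISH moved the other way in the same cells without passing the threshold. Its log2 difference was -0.98 (SE 0.491, 95% interval -2.01 to 0.06, adjusted p = 0.121), and the 3 GFOGER libraries had at most 1.08 cpm against 1.23 and 1.45 cpm with IKVAV. On the pooled reads CISH was 2.01-fold higher with IKVAV (35 reads of the GFOGER libraries against 43 of the IKVAV libraries, exact 95% interval 1.25 to 3.23, counting error only). Whether CISH passed depended on the libraries and on the model. Without GFOGER replicate 3 CISH was called, with a log2 difference of -1.48 and an adjusted p of 0.0219 in edgeR's test. Without GFOGER replicate 1 the difference shrank to -0.60 (adjusted p = 0.363). With all libraries and the replicate number as a block, CISH was called at -1.50.

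The other members showed small differences in MDA-MB-231 cells, and GHR had too few reads to be tested. The log2 difference was 0.07 for PRLR (95% interval -0.23 to 0.38) and 0.27 for JAK2 (-0.15 to 0.69). It was -0.09 for STAT5A (-0.38 to 0.20) and -0.19 for STAT5B (-0.42 to 0.04). Their adjusted p-values in edgeR's test were 0.171 to 0.712. For these 4 genes the intervals leave room for changes of up to 1.61-fold for JAK2 and 1.30-fold to 1.34-fold for the others. STAT5B was lower in all 3 GFOGER libraries than in both IKVAV libraries, but its difference did not pass (adjusted p = 0.171 in edgeR's test).

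In T47D cells no member passed the threshold in edgeR's quasi-likelihood test, and 1 of 6 members tested, PRLR, had an unadjusted p below 0.05. Of all 13642 genes tested, 3 (0.022%) were called, 0.044% passed on adjusted p alone, and 1531 had an unadjusted p below 0.05. Without T47D IKVAV replicate 3, 94 genes were called, and still none of the members. DESeq2 called 8 genes and none of the members.

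PRLR was lower with GFOGER than with IKVAV in T47D cells, by -0.19 on the log2 scale (SE 0.0786, 95% interval -0.36 to -0.02), or 1.14-fold, with no overlap between the libraries of the peptides. Its unadjusted p was 0.0296 and its adjusted p was 0.390, so the difference does not stand among all genes tested. Without T47D IKVAV replicate 3, which held the highest level, it was -0.15 with an adjusted p of 0.211. The other members lay closer to 0 or had wider intervals. The log2 difference was -0.01 for GHR (95% interval -0.18 to 0.16), 0.02 for STAT5B (-0.18 to 0.21) and -0.10 for CISH (-0.40 to 0.21). It was -0.13 for JAK2 (-0.53 to 0.28) and -0.19 for STAT5A (-0.60 to 0.22). SOCS2 could not be tested, with 1 read in all over the GFOGER libraries and 2 over the IKVAV libraries.

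**Figure D4:**
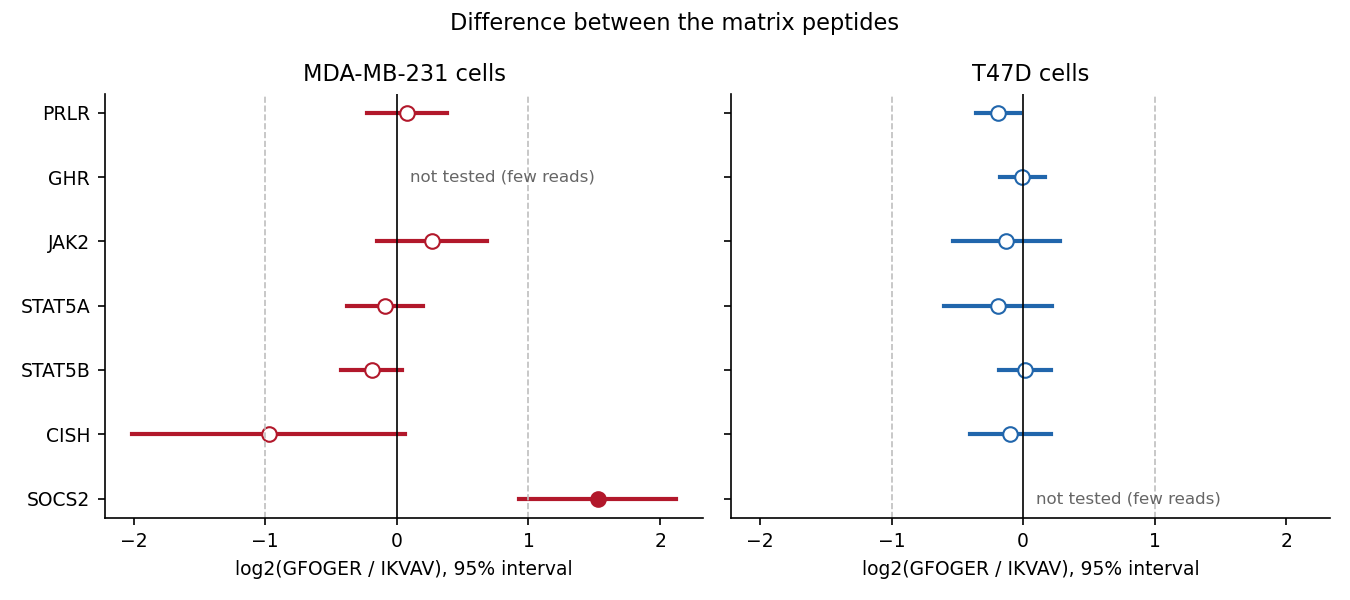
Log2 difference between GFOGER and IKVAV for each gene in MDA-MB-231 cells (left) and T47D cells (right), with 95% intervals from edgeR's quasi-likelihood fit, where filled points are called genes, open points are not, and dashed lines mark 2-fold. SOCS2 in MDA-MB-231 cells, at 1.53, is the only filled point, and the intervals of the members tested in T47D cells all lie within 2-fold.

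Whether the lines differed in their response to the peptides was tested with the interaction of line and peptide. No member passed, and 0 of 7 had an unadjusted p below 0.05 in edgeR's test, whereas 6.42% of the 15320 genes were called, 21% passed on adjusted p alone and 5183 had an unadjusted p below 0.05. DESeq2 called none of the members either. The difference of the responses was 2.39 on the log2 scale for SOCS2, with a 95% interval of -1.30 to 6.09, so the T47D reads were too few to say whether the rise of SOCS2 with GFOGER was particular to MDA-MB-231 cells. It turned to -0.31 without T47D IKVAV replicate 3, which held both of the IKVAV reads, and was 4.24 without T47D GFOGER replicate 2, which held the GFOGER read. For CISH it was -0.87 (-1.77 to 0.04, adjusted p = 0.165), and without MDA-MB-231 GFOGER replicate 3 it was -1.39 and was called, with an adjusted p of 0.0312. Without MDA-MB-231 GFOGER replicate 1 it was -0.51, with an adjusted p of 0.423. For PRLR it was 0.27 (-0.02 to 0.56, adjusted p = 0.172).

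Around the members, 64 further genes of the pathway were listed, of which 49 could be tested between the lines. Of these, 14 were called higher in MDA-MB-231 cells and 8 lower, or 44.9% against 46.3% of all genes, and their median log2 difference was 0.118 against -0.015 for all genes. By count the wider pathway was therefore close to the background, and the differences lay in particular genes.

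Beside SOCS2, the inhibitors SOCS1, SOCS3 and SH2B3 were higher in MDA-MB-231 cells. Of 6 other SOCS genes, 3 were called higher and 1 lower, where 46.3% of all genes were called. SOCS3, a strong inhibitor of JAK2 bound to cytokine receptors, was 18.5 ± 3.96 cpm (SD, n = 5) against 1.71 ± 0.367 cpm (SD, n = 6), a log2 difference of 3.46. SOCS1, which inhibits JAK kinases directly, had a log2 difference of 2.99, that of SOCS5 was 1.34 and that of SOCS7 was -1.28. SH2B3, an adaptor that restrains JAK2 signaling, was 341 ± 26.9 cpm (SD, n = 5) against 8.79 ± 1.13 cpm (SD, n = 6), a log2 difference of 5.30. Of the 10 phosphatases and other inhibitors tested, SH2B3 was the only one called higher and PIAS3, an inhibitor of STAT activity, the only one called lower (-1.09).

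Of the 11 listed targets of STAT5 tested, 3 were called higher in MDA-MB-231 cells and 3 lower. Of all genes 46.3% were called, 3630 higher and 3462 lower, so this count does not set the targets apart. ELF5, the transcription factor that works beside STAT5A in alveolar cells, had 170 to 225 cpm in T47D libraries and 2 to 7 reads in MDA-MB-231 libraries, a log2 difference of -9.77. GATA3, which is also a luminal marker, had a log2 difference of -5.81. For BCL6, a transcriptional repressor, it was -1.23. On the other side PIM1, a survival kinase, had 44.7 ± 2.44 cpm (SD, n = 5) against 8.40 ± 2.50 cpm (SD, n = 6), a log2 difference of 2.41, and CCND2, a G1 cyclin, had 401 reads in MDA-MB-231 libraries against 1 in T47D libraries. The genes of milk proteins were not detectable at this depth, with 0 or 1 read in all for CSN1S1, CSN2, CSN3 and LALBA and 20 reads for LTF. The prolactin-induced protein gene PIP, a secreted product of apocrine and luminal cells, had 280 to 531 cpm in T47D libraries and 5 to 15 reads in MDA-MB-231 libraries, a log2 difference of -9.50.

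Receptors, kinases, STATs and adaptors of the same route were called in both directions, as were all genes, of which 46.3% were called. Of 5 other receptors that use JAK2, LEPR (log2 difference 1.38) and IFNGR2 (1.47) were called higher in MDA-MB-231 cells and none lower. TYK2 (1.06) was called higher and JAK3 (-1.42) lower among the 3 other JAKs. Of 5 other STATs, STAT2 (1.02) and STAT4 (4.97, SE 0.76) were called higher, the latter with 7 to 36 reads against at most 2 in a library. Of 8 adaptors, IRS2 (3.10) and SOS1 (1.26) were called higher and GAB2 (-1.49) lower.

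**Figure D5:**
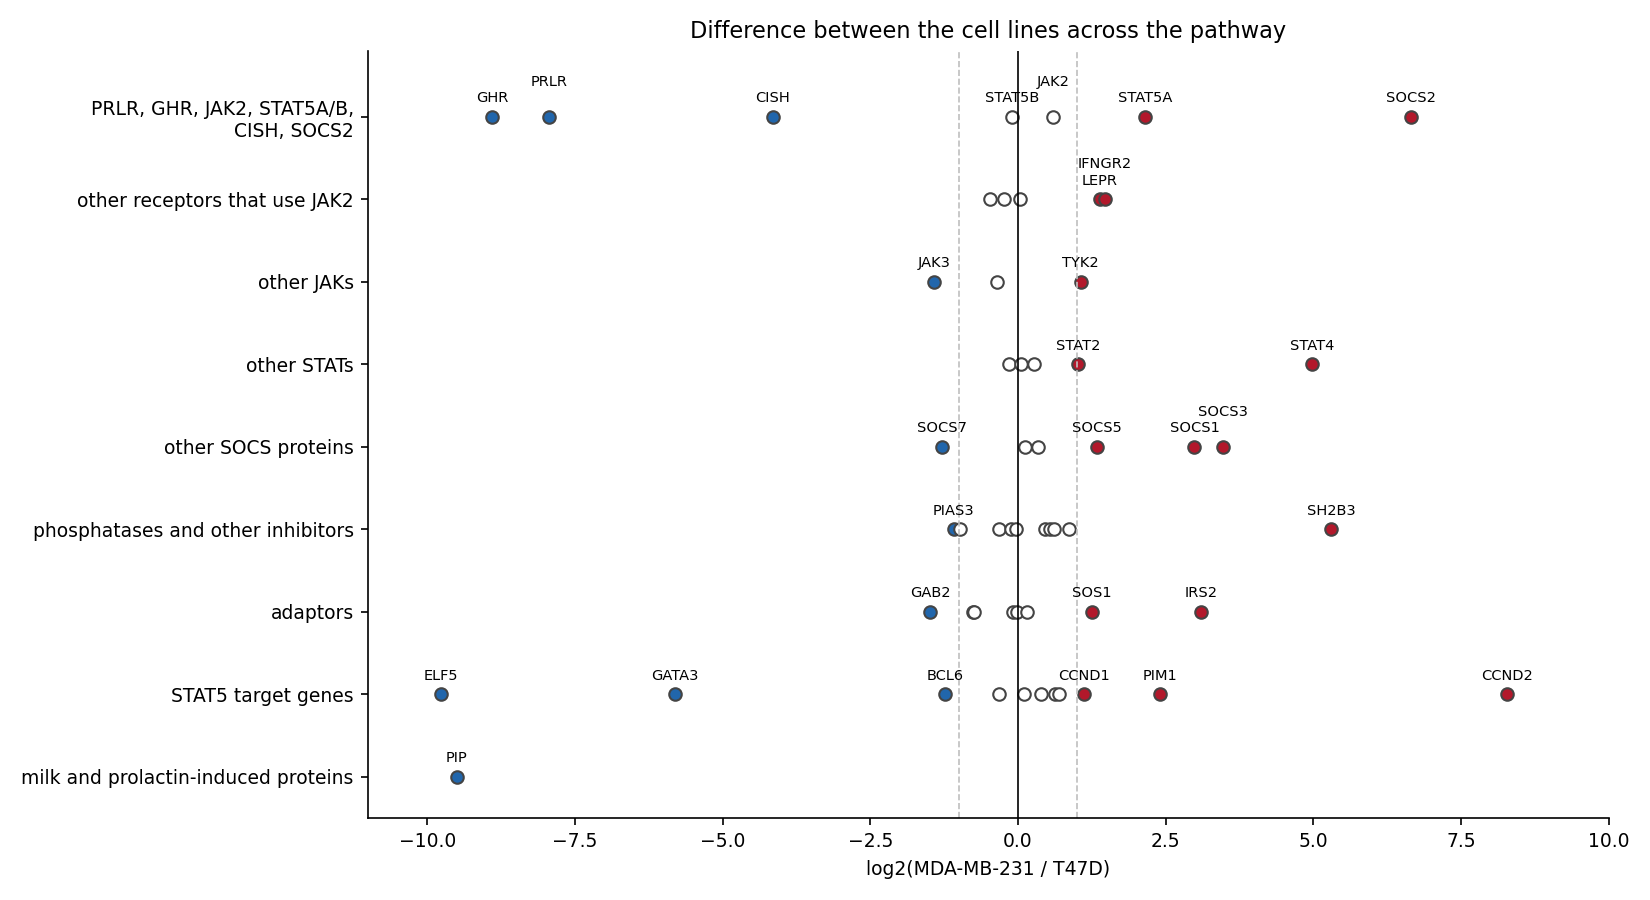
Log2 difference between MDA-MB-231 and T47D cells for the 7 members (top) and for every tested gene of the pathway lists, where red points are called higher in MDA-MB-231 cells, blue points lower, open points are not called, dashed lines mark 2-fold and called genes are labeled. GHR, PRLR, PIP and ELF5 lie at -7.93 or below, and SH2B3, SOCS2 and CCND2 lie at 5.30 or above.

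Between the peptides most changes in the same lists were below 2-fold. Of their 46 genes tested in MDA-MB-231 cells 1 was called, where 9.57% of all genes were, but 24 passed on adjusted p alone, 9 higher and 15 lower with GFOGER (52.2%, against 42.9% of all genes). Among these were CCND1 (0.77 on the log2 scale), MYC (0.76) and IRS2 (0.82), which were higher with GFOGER, and PIM2 (-0.92), which was lower; these 4 were chosen after their values were seen. The gene called was BCL6, with 33.6, 34.9 and 41.8 cpm with GFOGER in rising order and 74.3 and 76.1 cpm with IKVAV, a log2 difference of -1.04 (SE 0.115, adjusted p = 2.63e-06 in edgeR's test). The libraries of the peptides did not overlap for BCL6. In T47D cells 0 of 46 were called in edgeR's test, where 0.022% of all genes were. The median log2 difference of the lists was -0.178 in MDA-MB-231 cells, against 0.00386 over all genes, and -0.00052 in T47D cells, against -0.00103.

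The genes whose profiles over the 11 libraries were most like each member were named by the smallest root mean squared difference of centered log2 cpm, over 12880 genes whose mean log2 cpm reached 1. For PRLR these were KCTD15, NCAM2 and GREB1, the last a well-known estrogen-induced gene, at 0.179, 0.180 and 0.216. For GHR they were SLITRK4, CBFA2T3 and HR, and for CISH OGDHL, AIFM3 and CRIP2. For SOCS2 they were CCDC88A, TM4SF1 and CYR61, and for STAT5A SH3GLB1, LOC100507495 and GPR125. For JAK2 they were UBE2E1, ARL6IP6 and CGRRF1, and for STAT5B STAU1, ARF5 and TEX2. Since most of the variation is the step between the lines, many genes share such a profile, and the names depended on the measure: 2 of the 21 were also named by Pearson correlation and 12 of 21 with a prior count of 0.5.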

How the data were processed

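RNA of T47D and MDA-MB-231 cells, encapsulated in matrices with GFOGER or IKVAV for 3 days, was sequenced by the authors from stranded poly(A) libraries. Per the labels, the processing notes name Trim Galore 0.4.4, TopHat2 2.1.0, SAMtools 1.4, HTSeq 0.6.1p1 and edgeR 3.16.5, with the build hg19. The strand option of the counting is not given in the sources used here. The deposited table holds raw counts of reads per gene, without normalization, and an RPKM value made by the authors. The deposited RPKM values imply library totals of 5191201 to 22840524 reads, which do not follow the counted reads (PRLR has an RPKM of 301, 322 and 1365 in the 3 T47D IKVAV libraries), so levels were taken from the counts. The totals were 5191201 to 5774966 for the T47D GFOGER libraries, T47D IKVAV replicate 3 and MDA-MB-231 IKVAV replicate 1. All others had 19898878 to 22840524. The origin of this split is not stated in the sources used here, and its part in the results was not tested. The MDA-MB-231 IKVAV sample left out by the study for its quality was not analysed here. Of 24656 entries, the 1288 that repeat a symbol were left out in favor of the entry with most reads, and 4 of those left out had a count.

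The tools were edgeR 4.0.16, DESeq2 1.42.0 and limma 3.58.1 in R 4.3.3. Genes were filtered with filterByExpr, libraries scaled by TMM, and edgeR's quasi-likelihood test was run with Benjamini-Hochberg adjustment over all genes tested, in each line on its own for the peptides and over the 4 conditions for the lines and the interaction. It was checked on simulated data. Differences have 95% t intervals from the fit, and pooled reads exact binomial ones that cover counting error only. Samples with the same replicate number showed no shared deviation from their condition means (correlations from -0.184 to 0.0429 over 15 pairs). With so few libraries per condition this cannot show that they were not handled together. The members and lists were chosen with earlier results of these data known. The genes named are the members, list genes called between the peptides, the 2 highest and 2 lowest called genes of each list between the lines, the 3 genes most like each member, markers and overlapping genes. Other named genes are marked as chosen after their values were seen. Alternatives covered the test, scaling, filter, threshold, replicate block and each library left out. Sequences are from RefSeq (GRCh38.p14) and GENCODE transcripts on GRCh37. A marker of the leukocyte list is not reported here, and the sum of that list leaves it out.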

Additional observations from a re-analysis of the deposited data

Results flagged for a closer look

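Of the 49 listed pathway genes tested, 2 (4.08%) were called in edgeR's test of the interaction of line and peptide, against 6.42% of all genes. By count the lists were therefore not set apart from the background. MYC, a growth-promoting transcription factor, had an interaction of 1.16 on the log2 scale (SE 0.159, adjusted p = 4.83e-05), and GFOGER differed from IKVAV by 0.76 in MDA-MB-231 and by -0.39 in T47D cells. Its level was 165 to 181 cpm with GFOGER and 99.1 to 103 cpm with IKVAV in the MDA-MB-231 line. In T47D cells it was 104 to 110.4 cpm with GFOGER and 120.3 to 173 cpm with IKVAV. The libraries of the peptides did not overlap in either line. However, the MYC difference within T47D cells did not pass (adjusted p = 0.256 in edgeR's test), so a fall there is not established. JAK3, a kinase of the JAK family, had an interaction of -1.165 (SE 0.316, adjusted p = 0.0126), and the differences were -0.86 and 0.31 in MDA-MB-231 and T47D cells. It had 29 to 58 reads in MDA-MB-231 libraries and 78 to 143 in T47D libraries. The JAK3 difference within T47D cells did not pass either (adjusted p = 0.556 in edgeR's test). Neither gene passed the 2-fold limit within a line, and MYC and JAK3 are named because the test picked them.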

How the results depend on the processing

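The 5 calls between the lines held with any 1 library left out, and fell to 2 when at least 10 reads were asked in every library, since fewer genes are then tested. Pairing by replicate number was not shown and was left out of the main fits. With the replicate block the members called between the peptides in MDA-MB-231 cells rose from 1 to 2 through CISH (-1.50, adjusted p = 0.0307). With the 2-fold limit inside the test the count was 0, and it was 1 to 2 with a library left out. In the interaction the count of members was 0 to 1 with a library left out. In T47D cells it was 0 under all alternatives run.

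Over all genes, those called between the peptides in MDA-MB-231 cells numbered 403 with the limit inside the test and 6040 at any fold. In T47D cells they numbered 8 with DESeq2, 20 with no filter, 5 with the replicate block, 0 with the limit inside the test, 6 at any fold, 5 in a fit of all 4 conditions, and 0 to 94 with a library left out. Between the lines they numbered 4091 with at least 10 reads in every library and 12947 at any fold, and in the interaction 132 with the limit inside the test and 3222 at any fold.

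Some differences changed sign, most of them near 0. With a library left out, the log2 difference between the peptides ranged from -0.11 to 0.28 for PRLR in the MDA-MB-231 line. In the T47D line it ranged from -0.0547 to 0.0300 for GHR (0.0024 with library size alone), -0.0483 to 0.0585 for STAT5B, -0.197 to 0.0349 for CISH and -0.262 to 0.0204 for JAK2. The difference of STAT5B between the lines was 0.0137 in IKVAV libraries alone. The interaction of STAT5A was -0.0035 with the replicate block and -0.0618 to 0.199 with a library left out, and that of SOCS2, 2.39 with all libraries, was -0.31 to 4.24. The share of STAT5A kept its difference between the lines at 23.8 to 26.6 points. Depth limits GHR and CISH in MDA-MB-231 cells and SOCS2 in T47D cells. The cause of these changes was not tested.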

Other observations

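PRLR and GHR lie 7.193 Mb apart on chromosome 5, and the genes around them were called in both directions between the lines. This region was looked at after its values were seen. Of 62 other genes tested within 5 Mb of the pair or between them, 17 were called higher in MDA-MB-231 cells and 16 lower (53.2%, against 46.3% of all genes), with a median log2 difference of -0.137. Of the 28 genes tested between PRLR and GHR, 11 were called higher and 6 lower (60.7%, against 46.3% of all genes). The tested genes next to PRLR on either side ran the same way as PRLR: AGXT2 had a mean of 1.06 cpm in T47D cells and 0 reads in MDA-MB-231 cells, and SPEF2 had a log2 difference of -3.64. CCDC152, the next tested gene beyond GHR, had one of -3.07, and TTC23L, farther out beside PRLR, one of -3.27. Both were low even in T47D cells, at means of 1.30 and 0.769 cpm. RAD1 (0.07), BRIX1 (0.04) and DNAJC21 (-0.28), which lie between TTC23L and AGXT2, were not called. RAI14, beyond TTC23L, was called higher in MDA-MB-231 cells (1.61). IL7R, another cytokine receptor gene, lies between PRLR and GHR, 0.808 Mb from the start of PRLR. It had 18.3 cpm in MDA-MB-231 cells and 0.0411 cpm in T47D cells. Its log2 difference of 8.29 is opposite to those of PRLR and GHR. In the same interval the cytokine receptor genes LIFR (3.97) and OSMR (1.63) were also called higher in MDA-MB-231 cells. RANBP3L (-4.95) and UGT3A2 (-4.40), in that interval too, were called lower. SEPP1, which encodes a selenium transport protein and lies beyond GHR, had 0.924 cpm in MDA-MB-231 cells and 124.6 cpm in T47D cells, a log2 difference of -7.31. In all, 3 of the 62 genes had a fitted log2 difference below -5. These genes were chosen after their values were seen.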
